A study of Arabidopsis thaliana with 4 samples.

Results

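The 10 genes described here were chosen for 2 specialised cell types of the Arabidopsis thaliana leaf and were followed through a nuclear RNA immunoprecipitation. Whether their reads came from these cells alone was not tested. They were taken by name: FAMA, MYB60, KAT1, KAT2, SLAC1, GORK, HT1 and OST1 for guard cells, and the myrosinase genes TGG1 and TGG2 for myrosin cells, 10 of 32548 nuclear or MIR loci in the files. FAMA (AT3G24140) lies on chromosome 3, and KAT2 (AT4G18290) and OST1 (AT4G33950) on chromosome 4. MYB60 (AT1G08810), SLAC1 (AT1G12480) and HT1 (AT1G62400) are on chromosome 1, and KAT1 (AT5G46240), GORK (AT5G37500), TGG1 (AT5G26000) and TGG2 (AT5G25980) on chromosome 5. Estimated reads of all entries of a locus were summed. RNA came from crosslinked nuclei of Col-0 leaves, 4 weeks old, of plants carrying MTA-GFP, the tagged catalytic subunit of the m6A writer of messenger RNA, and of a control line. Sample titles name the control GFP, whereas its genotype field reads CFP. The sources used here do not name the promoter of either transgene. Each line gave an input and an immunoprecipitate (IP) on GFP-Trap beads, with 1 library in each of the 4 groups. No difference between groups therefore has a replicate check, and whether several plants were pooled is not stated. The tissue is labelled both leaf and aerial tissue.

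Guard cells flank the stomatal pore and open or close it by moving ions and water. Myrosin cells lie along the veins and store myrosinase, which releases toxic products from glucosinolates when tissue is crushed. The bHLH transcription factor FAMA is needed for both: it ends the divisions of the stomatal lineage and turns on guard cell identity, and it is needed for myrosin cells to form. TGG1 and TGG2 transcripts are known from both guard cells and myrosin cells, so the myrosinase genes do not mark one of these cell types alone. In bulk nuclei, fewer cells of a type and less RNA per cell cannot be told apart.

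The libraries held 36098699 to 45198238 assigned reads, of which 2.11% to 8.43% fell on nuclear mRNA. The MTA transcript counted 2291 reads in the input and 12860 in the IP of MTA-GFP, and 64 and 31 in those of the control, in the direction of the labels. Leaf mesophyll markers were abundant in every library, at 11461 to 32870 reads of every 1000000 nuclear mRNA reads over 7 genes. The 4 flower markers together had 1 to 7 reads in a library. Levels below are mRNA RPM, reads of every 1000000 nuclear mRNA reads of the same library, with exact Poisson 95% intervals. These and all other intervals cover counting error only. PCR copies of one molecule cannot be recognised here and count separately.

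The myrosinase genes were by far the most abundant of the 10 and took 83.9% to 95.5% of their summed reads. Per transcript length, on the deposited TPM values of each library, the order began with TGG1, TGG2 and FAMA in all 4 libraries. TGG1 stood at a TPM of 1.46 and 0.834 in the MTA-GFP input and IP, and of 1.08 and 0.376 in those of the control. FAMA stood at 0.0273, 0.0504, 0.0326 and 0.0217 in the same order. Within a library TGG1 was 53.3 times FAMA in the MTA-GFP input (41.6 to 69.6) and 16.5 times (13.8 to 19.9) in the MTA-GFP IP. The control input had 33.1 times (27.2 to 40.6) and the control IP 17.3 times (12.4 to 24.8). These quotients need no scaling between libraries, and in both lines the 95% intervals of input and IP do not meet.

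Below FAMA the order changed with the library, and most neighbours could not be separated. In the MTA-GFP input FAMA was followed by MYB60, OST1, KAT1, SLAC1, GORK, HT1 and KAT2, and the intervals of all neighbours from FAMA down overlapped. In the MTA-GFP IP the TPM interval of FAMA lay above that of SLAC1, the interval of KAT1 lay above that of GORK, and that of HT1 lay above that of KAT2. KAT2 was lowest there, at a TPM of 0.00467 (0.00261 to 0.00770). In the control input HT1 was lowest, and in the control IP all intervals from GORK down overlapped.

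**Figure D1:**
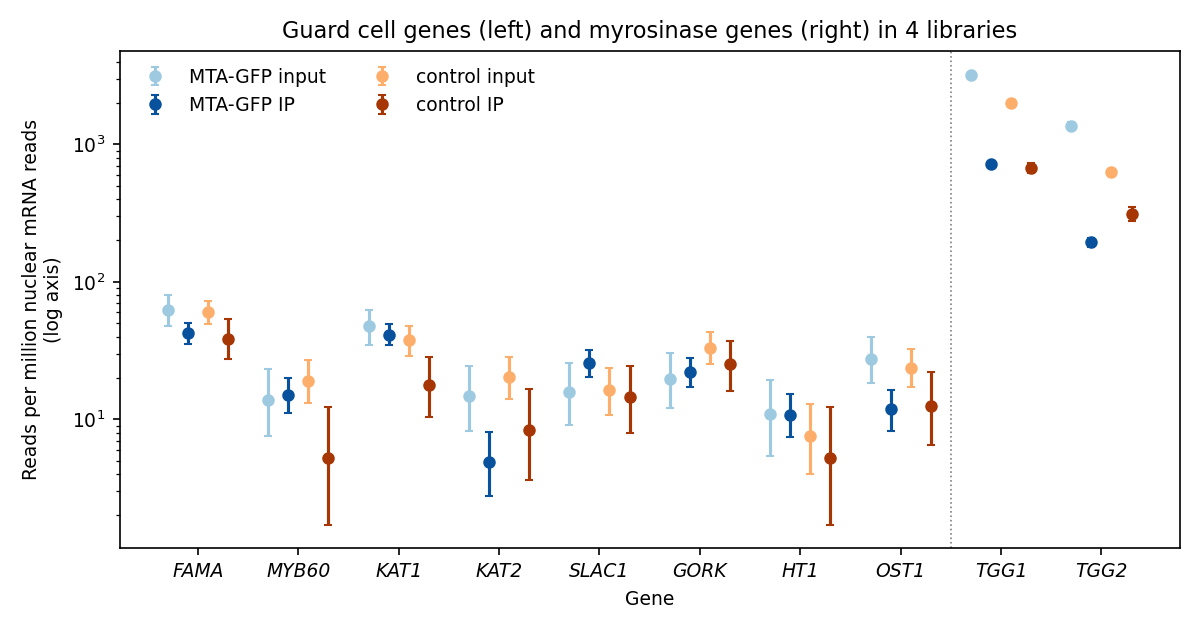
Levels in mRNA RPM, reads of every 1000000 nuclear mRNA reads (log axis), of the 10 genes in each of the 4 libraries; points are single libraries and bars are exact Poisson 95% intervals for counting error. TGG1 and TGG2 lie above the 8 guard cell genes in every library, and both are lower in the IPs than in the inputs.

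TGG1, a myrosinase that hydrolyses glucosinolates, had 3206 reads in the MTA-GFP input, 2174 in the MTA-GFP IP, 3430 in the control input and 644 in the control IP. These were 3169 (3060 to 3281), 714 (684 to 745), 1991 (1925 to 2059) and 674 (623 to 728) mRNA RPM. Both IPs were low and both inputs high. TGG2, a myrosinase gene close to TGG1 on the same chromosome, had 1386, 589, 1079 and 297 reads in the same order. Its levels were 1370.0 (1299 to 1444), 193 (178 to 210), 626 (589 to 665) and 311 (276 to 348), again with both IPs below both inputs.

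For ratios between libraries, reads were scaled by TMM factors, which set the typical nuclear locus near a log2 ratio of 0. A locus was called higher or lower when its ratio was at least 2-fold and its 95% interval left out 1. IP over input is called the MTA-GFP pair and the control pair below. TGG1 was 5.45-fold lower in the MTA-GFP pair, a log2 ratio of -2.45 (-2.53 to -2.37), and TGG2 was 8.69-fold lower, at -3.12 (-3.26 to -2.98). Among the 15669 loci compared, TGG1 stood at percentile 0.785 of this ratio and TGG2 at percentile 0.530, counted from the lowest. In the control pair TGG1 was 2.73-fold lower, at -1.45 (-1.57 to -1.33). TGG2 was at -0.89 (-1.09 to -0.71), short of 2-fold. In the control pair TGG1 stood at percentile 7.83 of the loci and TGG2 at percentile 16.7. Both genes were thus below the typical locus in both precipitates.

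The double ratio, the MTA-GFP pair divided by the control pair, asks whether the tagged writer recovers a transcript more than the control does. TGG2 was 4.68-fold lower in it, at -2.23 (-2.46 to -1.99). TGG1 was at -0.999 (-1.14 to -0.85), a difference of 1.999-fold that stops just short of the 2-fold rule. Among all loci compared, TGG2 stood at percentile 2.02 of the double ratio and TGG1 at percentile 12.8. The inputs differed as well. TGG2 was 2.27-fold higher with MTA-GFP between the inputs, at 1.19 (1.07 to 1.30), and TGG1 was at 0.73 (0.66 to 0.80). Between the 2 IPs TGG2 was 2.06-fold lower with MTA-GFP, at -1.04 (-1.24 to -0.83), and TGG1 was at -0.27 (-0.40 to -0.14). Scaled to mRNA reads, TGG2 between the IPs was at -0.69 and no longer called, and TGG1 was at 0.08.

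The balance between the 2 myrosinase genes needs no scaling. Per length, TGG1 was 2.37 times TGG2 (2.23 to 2.53) in the MTA-GFP input and 3.87 times (3.53 to 4.24) in its IP. The control input had 3.27 times (3.05 to 3.50) and the control IP 2.27 times (1.98 to 2.61). The balance moved in opposite directions in the lines, towards TGG1 in the MTA-GFP IP and towards TGG2 in the control IP, by amounts larger than counting error. No replicate shows how much it varies between preparations. Whether reads were divided differently between these related genes was not tested.

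The transcript models of both myrosinase genes took different shares of the reads in input and IP, in both lines. TGG1 has the models TGG1.1 (1889 bases) and TGG1.2 (1836 bases), and TGG2 has TGG2.1 (1860 bases), TGG2.2 (1966 bases) and TGG2.3 (1857 bases). TGG1.1 held 26.1% of the gene's estimated reads in the MTA-GFP input (24.6 to 27.6, Wilson 95% interval) and 98.0% (97.3 to 98.5) in the IP. Its share in the control input was 11.7% (10.7 to 12.8), and in the control IP 100% (99.4 to 100). TGG2.2 held 32.8% (30.3 to 35.3) and 99.9% (99.0 to 99.97) in the MTA-GFP input and IP, and 25.6% (23.1 to 28.3) and 99.9% (98.7 to 100) in the control input and IP. In each gene the longest model took nearly all reads of both IPs. The intervals cover counting and not the division of reads among overlapping models, which Salmon estimates.

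**Figure D2:**
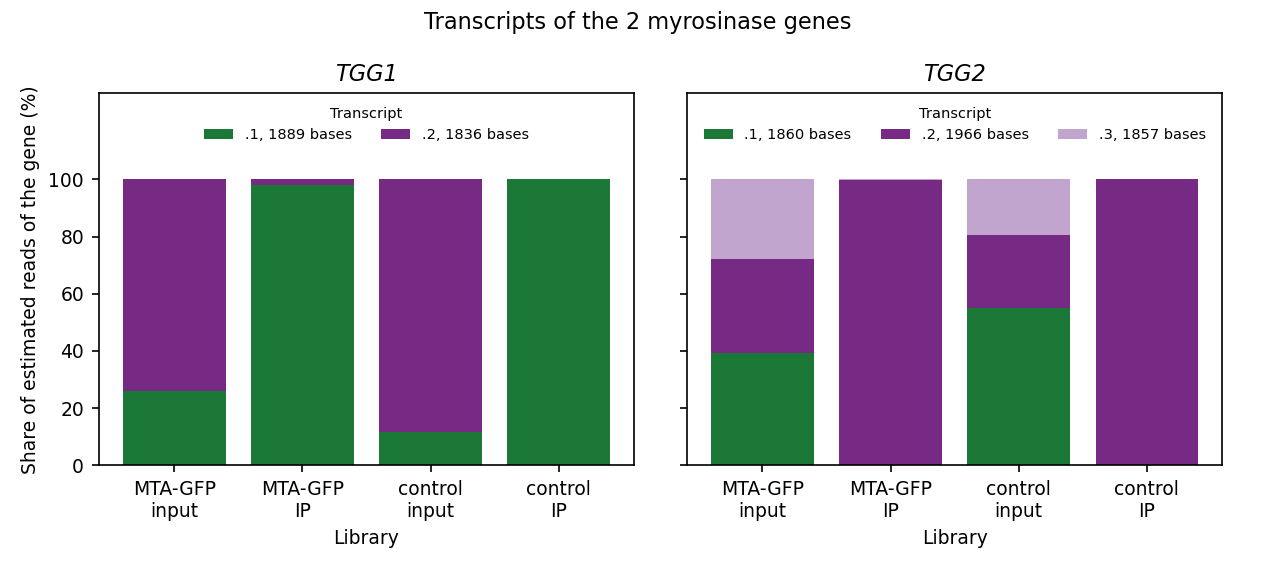
Share of each gene's estimated reads (%) assigned to each transcript model of TGG1 and TGG2 in the 4 libraries, 1 library a bar. The longest model, TGG1.1 and TGG2.2, fills 98.0% to 100% of both IPs and 11.7% to 32.8% of the inputs.

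The points of composition moved between models were 71.9 for TGG1 and 67.1 for TGG2 in MTA-GFP IP against input, and 88.3 and 74.3 in the control pair. Between the 2 IPs they were 2.03 and 0.123, and between the 2 inputs 14.3 and 15.5. Over the 3252 loci with several models and at least 30 reads in every library, the median move was 27.1 points in the MTA-GFP pair and 27.8 in the control pair. Moves of at least 50 points were common there, at 22.4% of loci in the MTA-GFP pair and 24.8% in the control pair. At least 50 points moved in both pairs at 9.23% of these loci, and in both towards longer models at 4.67%. TGG1 and TGG2 are 2 of these loci. FAMA, the other member with enough reads, moved by 18.6 and 9.31 points.

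In TMM-scaled reads, TGG1.2 went from 3700 in the MTA-GFP input to 18.7 in the IP and from 2669 in the control input to 0 in the control IP, where 0 of 644 estimated reads has a Wilson upper bound of 0.593%. TGG1.1 went from 1304 to 900 scaled reads in the MTA-GFP pair, but from 355 to 1108 in the control pair. For TGG2.2 the same values were 709 and 249 with MTA-GFP and 243 and 510 with the control. On the TMM scale the longest model of each gene was thus lower in the MTA-GFP pair and higher in the precipitate of the control. The direction with MTA-GFP depends on the scale, and the 2-fold rule was not applied to single models. In deposited TPM, TGG1.1 went from 0.371 to 0.816 and TGG2.2 from 0.192 to 0.215 in the MTA-GFP pair. In the control pair they went from 0.123 to 0.376 and from 0.0804 to 0.165. The shorter models were lower in both.

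FAMA, the transcription factor, had 63, 129, 104 and 37 reads in the input and IP of MTA-GFP and then of the control. Its levels were 62.3 (47.9 to 79.7), 42.4 (35.4 to 50.4), 60.4 (49.3 to 73.1) and 38.7 (27.3 to 53.4) mRNA RPM. The inputs were alike, and each IP was lower than its own input with overlapping intervals. The log2 ratio of IP over input was -0.86 (-1.30 to -0.39) for MTA-GFP and -0.51 (-1.11 to 0.03) for the control, neither reaching 2-fold, and the double ratio was -0.34 (-1.04 to 0.35). FAMA.1 held most of its reads in all 4 libraries.

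MYB60, an R2R3-MYB factor that promotes stomatal opening, had 14, 46, 33 and 5 reads in the same order. That was 13.8, 15.1, 19.2 and 5.23 mRNA RPM, with the control IP lowest. It was 3.12-fold lower in the control pair, at -1.64 (-3.47 to -0.39), and at -0.20 (-1.06 to 0.81) in the MTA-GFP pair. Its double ratio of 1.44 (-0.12 to 2.99) was the highest of the 10, and the interval included 0. The control IP had only 5 reads. Scaled to mRNA reads the gene passed the rule, at 1.85.

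KAT1 and KAT2 encode inward-rectifying potassium channels that take up potassium while the pore opens. KAT1 had 48, 126, 65 and 17 reads, or 47.4, 41.4, 37.7 and 17.8 mRNA RPM, again lowest in the control IP. Its ratio of IP over input was -0.50 (-0.98 to 0.02) for MTA-GFP and -0.94 (-1.83 to -0.18) for the control. KAT2 had 15, 15, 35 and 8 reads, or 14.8, 4.93, 20.3 and 8.37 mRNA RPM, with both IPs below both inputs. It was 3.70-fold lower in the MTA-GFP pair, at -1.89 (-3.02 to -0.75), and 2.14-fold lower in the control pair, at -1.10 (-2.48 to -0.03). Per length, KAT1 was 2.69 times KAT2 (1.48 to 5.17) in the MTA-GFP input and 6.12 times (3.57 to 11.3) in the MTA-GFP IP. In the control input and IP it was 1.48 times (0.966 to 2.3) and 1.55 times (0.633 to 4.14). The 4 intervals of this quotient are wide, and only those of the MTA-GFP IP and the control input do not meet.

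GORK, the outward-rectifying potassium channel that releases potassium when the pore closes, had 20, 67, 57 and 24 reads. That was 19.8, 22.0, 33.1 and 25.1 mRNA RPM, with overlapping intervals throughout. SLAC1, the anion channel that starts closure, had 16, 78, 28 and 14 reads, or 15.8, 25.6, 16.3 and 14.7 mRNA RPM. It was highest in the MTA-GFP IP and was the only one of the 10 genes with a ratio above 0 in the MTA-GFP pair, at 0.36 (-0.39 to 1.28). The double ratios of GORK, 0.10 (-0.89 to 1.09), and of SLAC1, 0.37 (-0.82 to 1.57), included 0. SLAC1 overlaps AT1G12470, which had 406 reads over the 4 libraries, and a non-coding gene, AT1G04953, with 4. Strand use in the counting is not stated, so reads in the stretches they share could belong to either gene; the length of the overlap was not measured.

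OST1 is the kinase that passes the abscisic acid signal to SLAC1, and HT1 is a kinase that holds back closure when carbon dioxide is low. OST1 had 28, 36, 41 and 12 reads, or 27.7, 11.8, 23.8 and 12.6 mRNA RPM, low in both IPs. It was 2.89-fold lower in the MTA-GFP pair, at -1.53 (-2.28 to -0.76), and at -0.77 (-1.87 to 0.15) in the control pair. HT1 had 11, 33, 13 and 5 reads, or 10.9, 10.8, 7.55 and 5.23 mRNA RPM, and a double ratio of -0.01 (-1.74 to 1.71). HT1 has 29 reads without the MTA-GFP IP, so it met the minimum of 40 only through that library. All estimated reads of OST1 lay on OST1.2 in the MTA-GFP input (28 reads) and on OST1.1 in the MTA-GFP IP (36 reads), while OST1.1 held 93.3% in the control input and 100% in the control IP.

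**Figure D3:**
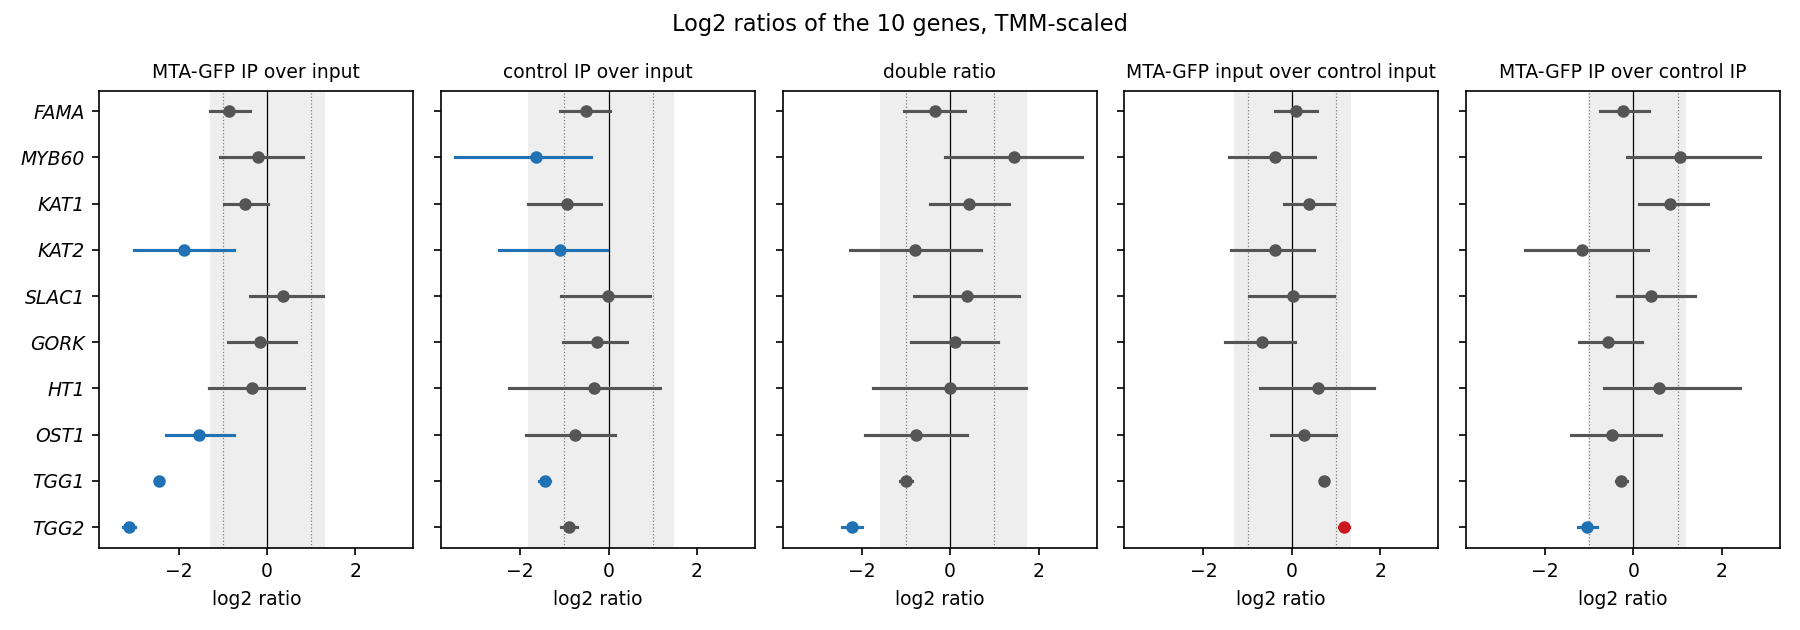
Log2 ratios of the 10 genes on TMM-scaled reads, 1 panel a ratio; bars are 95% intervals for counting error, blue points were called lower, the red point was called higher, grey points were neither, and grey bands span the 5th to 95th percentile of the 15669 loci. TGG1, TGG2, KAT2 and OST1 lie left of the band in MTA-GFP IP over input, and TGG2 alone in the double ratio.

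All 10 genes had a read in every library and met the minimum of 40 reads over the 4 libraries. In the MTA-GFP pair 4 of 10 were lower (KAT2, OST1, TGG1 and TGG2) and 0 higher, where 8.71% of all 15669 loci were lower and 6.84% higher. Their median log2 ratio was -0.68, against -0.06 over all loci. In the control pair 3 of 10 were lower (MYB60, KAT2 and TGG1) and 0 higher, where 12.1% of all loci were lower and 9.28% higher. The median was -0.83, against 0.01 over all loci. In both ratios the median of the 10 was thus below that of all loci, but 6 and 7 of the 10 were not called. SLAC1 stood at percentile 72.7 of the loci in the MTA-GFP pair and at percentile 48.7 in the control pair.

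In the double ratio 1 of 10 was lower (TGG2) and 0 higher, where 9.54% of all loci were lower and 7.46% higher, so the count is near the background. The median was -0.18, against -0.05. Between the inputs 1 of 10 was higher with MTA-GFP (TGG2) and 0 lower, where 7.1% of all loci were higher and 6.7% lower. Between the IPs 1 of 10 was lower with MTA-GFP (TGG2) and 0 higher, where 4.36% of all loci were lower and 4.97% higher. These ratios share libraries and are not independent of each other.

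Summed, the 8 guard cell genes had 215, 530, 376 and 122 reads. That was 213 (185 to 243), 174 (160 to 190), 218 (197 to 241) and 128 (106 to 152) mRNA RPM in the input and IP of MTA-GFP and then of the control. The inputs were close to each other, 1.01-fold (0.852 to 1.20) after TMM scaling. The sum of the MTA-GFP pair was 0.667-fold (0.568 to 0.785), and that of the control pair 0.633-fold (0.512 to 0.779). The double ratio of the sum was 1.05 (0.813 to 1.36). The sum joins genes with double ratios on both sides of 0, such as MYB60 at 1.44 and FAMA at -0.34, and its value depends on the scale, as given below. For TGG1 and TGG2 together the same values were 0.163 (0.155 to 0.171), 0.407 (0.379 to 0.437) and 0.400 (0.367 to 0.435).

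The scale decides what these values are relative to. Scaled to all assigned reads, the median of all loci moves by 2.17 for the MTA-GFP pair, by -1.14 for the control pair and by 3.31 for the double ratio. As a share of all reads, the guard cell genes were 3.0-fold (2.56 to 3.53) in the MTA-GFP pair and 0.287-fold (0.232 to 0.353) in the control pair. The myrosinase genes were 0.733-fold (0.699 to 0.768) and 0.185-fold (0.172 to 0.198). On that scale the double ratio of each of the 10 genes is above 0, TGG2 being lowest at 1.09. Scaled to mRNA reads, the double ratio of the guard cell sum was 1.40 (1.08 to 1.81), an interval that leaves out 1, and that of the myrosinase sum was 0.531 (0.488 to 0.578). On that scale the median of all loci moves by 0.41.

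Among the close paralogs of TGG1 and TGG2 that were looked up, none had more than 3 reads in a library. TGG3 and BGLU36 had 0 to 3 reads in a library, and TGG4 and TGG5, known from roots, had 0 in all 4, where 3 reads would be 0.0664 to 0.0831 reads of every 1000000 assigned reads. SNRK2.2 and SNRK2.3, kinases of the abscisic acid pathway closest to OST1, had more reads than OST1 in every library, at 121, 409, 150 and 86 and at 68, 282, 112 and 92. Their ratios in the MTA-GFP pair were -0.13 (-0.42 to 0.18) and 0.16 (-0.22 to 0.57), against -1.53 for OST1. SLAH3, an anion channel related to SLAC1, was at -0.20 (-0.81 to 0.48), while SLAH1, SLAH2 and SLAH4 had 0 to 13 reads in a library. The potassium channels AKT2 and KC1 had double ratios of 0.06 (-0.66 to 0.79) and -0.88 (-2.94 to 1.18). KC1 had 5, 29, 5 and 7 reads and met the minimum of 40 only through the MTA-GFP IP. AKT1, known for potassium uptake in roots, was 2.64-fold higher in the double ratio, at 1.40 (0.46 to 2.35). In the MTA-GFP pair AKT1 was not called, at 0.41 (-0.23 to 1.17). Between the inputs it was lower with MTA-GFP, at -1.07 (-1.84 to -0.40). SKOR, the stelar outward channel, had 0 to 10 reads in a library.

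Of 21 listed genes of the wider stomatal lineage 14 were compared, at a median of -0.16 in the MTA-GFP pair. In that pair 0 were higher and 2 lower, where 6.84% of all loci were higher and 8.71% lower. The lower ones were TMM, a receptor-like protein that limits stomatal divisions, at -1.08 (-1.71 to -0.41) and SDD1, a subtilisin-like protease, at -1.99 (-3.20 to -0.79). In the double ratio TMM was lower, at -1.65 (-3.01 to -0.29), from 33, 58, 12 and 9 reads, and 0 were higher. The median of the list was -0.11. Over all loci 9.54% were lower and 7.46% higher in the double ratio, so 1 of 14 lower is near that share. Between the inputs TMM was higher with MTA-GFP, at 2.25 (1.29 to 3.37), and between the IPs it was at 0.60 (-0.36 to 1.86).

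Of 30 genes of guard cell signalling 27 were compared, at a median of -0.12 in the MTA-GFP pair. In that pair 3 were higher and 1 lower, where 6.84% of all loci were higher and 8.71% lower. The higher ones were the abscisic acid receptors PYL8, at 1.36 (0.85 to 1.95), and PYR1, at 1.0 (0.24 to 1.97), and the blue light kinase BLUS1, at 1.77 (0.61 to 3.57). PYR1 was also called higher in the control pair, at 1.57 (0.41 to 2.83). The double ratios of PYR1, -0.57 (-1.90 to 0.77), and of PYL8, 0.84 (0.12 to 1.55), were not called. In the MTA-GFP pair 1 gene was lower. CA1, a carbonic anhydrase that is also abundant in mesophyll chloroplasts, was lower, at -1.29 (-1.38 to -1.20). In the double ratio 3 were higher: the phosphatase ABI2 at 1.39 (0.48 to 2.31), the kinase MPK12 at 1.71 (0.35 to 3.08) and BLUS1 at 2.14 (0.61 to 3.67). CA1 was lower at -1.66 (-1.83 to -1.49). Over all loci 7.46% were higher and 9.54% lower in the double ratio. BLUS1 had 5 reads in the MTA-GFP input and MPK12 had 6 in the control IP. Between the inputs CA1 was higher with MTA-GFP, at 1.60 (1.48 to 1.71), and BLUS1 lower, at -1.91 (-3.73 to -0.67). Between the IPs CA1 was at -0.06 (-0.19 to 0.07) and BLUS1 at 0.23 (-0.57 to 1.22). ABI2 and MPK12 were not called in the MTA-GFP pair, at 0.13 (-0.37 to 0.68) and 0.31 (-0.31 to 1.04). Both were lower in the control pair, at -1.27 (-2.18 to -0.51) and -1.40 (-3.04 to -0.22). Of 12 ion transport genes 8 were compared, with 0 past the rule in the MTA-GFP pair, and AKT1 alone past it in the double ratio.

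Of 17 genes of glucosinolate breakdown, which act with the myrosinases, 11 were compared. In the MTA-GFP pair 3 were lower and 0 higher, where 8.71% of all loci were lower, and the median was -0.39. In the control pair 2 were lower and 2 higher, at a median of -0.45, where 12.1% of all loci were lower and 9.28% higher. ESM1, a protein that favours isothiocyanate products, had 2006, 1858, 1825 and 566 reads and was lower at -2.00 (-2.09 to -1.90). NSP5, a nitrile-specifier protein, was at -1.35 (-1.82 to -0.86) and MVP1, a protein of the ER needed for normal vacuole and ER form, at -1.13 (-1.55 to -0.69). Others were above 0 without passing the rule, such as the nitrile-specifier protein NSP1 at 0.35 (-0.06 to 0.82). NSP5 was also lower in the control pair, at -1.42 (-2.09 to -0.84), and its double ratio was 0.07 (-0.68 to 0.81). In the double ratio ESM1 was lower, at -1.27 (-1.44 to -1.11), as were the myrosinase-binding MBP1, at -2.02 (-3.05 to -0.99), and the epithiospecifier ESP, at -1.64 (-2.89 to -0.39). Over all loci 9.54% were lower in the double ratio. Unlike TGG2, MBP1 and ESP were above 0 in the MTA-GFP pair, at 0.13 (-0.46 to 0.82) and 0.22 (-0.40 to 0.93), and were called higher in the control pair, at 2.15 (1.29 to 3.12) and 1.86 (0.71 to 3.16). MBP1 and ESP had 16 and 10 reads in the control input. Between the inputs both were higher with MTA-GFP, at 1.56 (0.64 to 2.57) and 2.10 (1.04 to 3.37).

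Of 17 genes of glucosinolate synthesis and transport 16 were compared, at a median of -0.71 in the MTA-GFP pair. In that pair 3 were lower and 0 higher, where 8.71% of all loci were lower and 6.84% higher. The 3 were MAM1, which elongates methionine side chains, at -1.21 (-1.39 to -1.02), CYP79F1, which makes aliphatic aldoximes, at -1.07 (-1.31 to -0.82), and the regulator MYB29 at -1.26 (-1.88 to -0.60). MAM1 and MYB29 were also lower in the control pair, at -1.11 (-1.32 to -0.90) and -1.01 (-1.87 to -0.27). Their double ratios were -0.10 (-0.37 to 0.17) and -0.25 (-1.20 to 0.70). CYP79F1 was not called in the control pair, at -0.25 (-0.59 to 0.08). In the double ratio UGT74B1, a glucosyltransferase of the core pathway, was higher at 1.23 (0.80 to 1.66) and CYP79B2, of the indole branch, lower at -1.31 (-1.85 to -0.76). Over all loci 7.46% were higher and 9.54% lower in it, so 1 of 16 each way is near those shares. UGT74B1 was below 0 in the MTA-GFP pair, at -0.76 (-1.05 to -0.46), and lower in the control pair, at -1.99 (-2.34 to -1.67). Between the inputs UGT74B1 was lower with MTA-GFP, at -1.44 (-1.72 to -1.18). The medians of the list were -0.71 with MTA-GFP and -0.43 with the control.

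**Figure D4:**
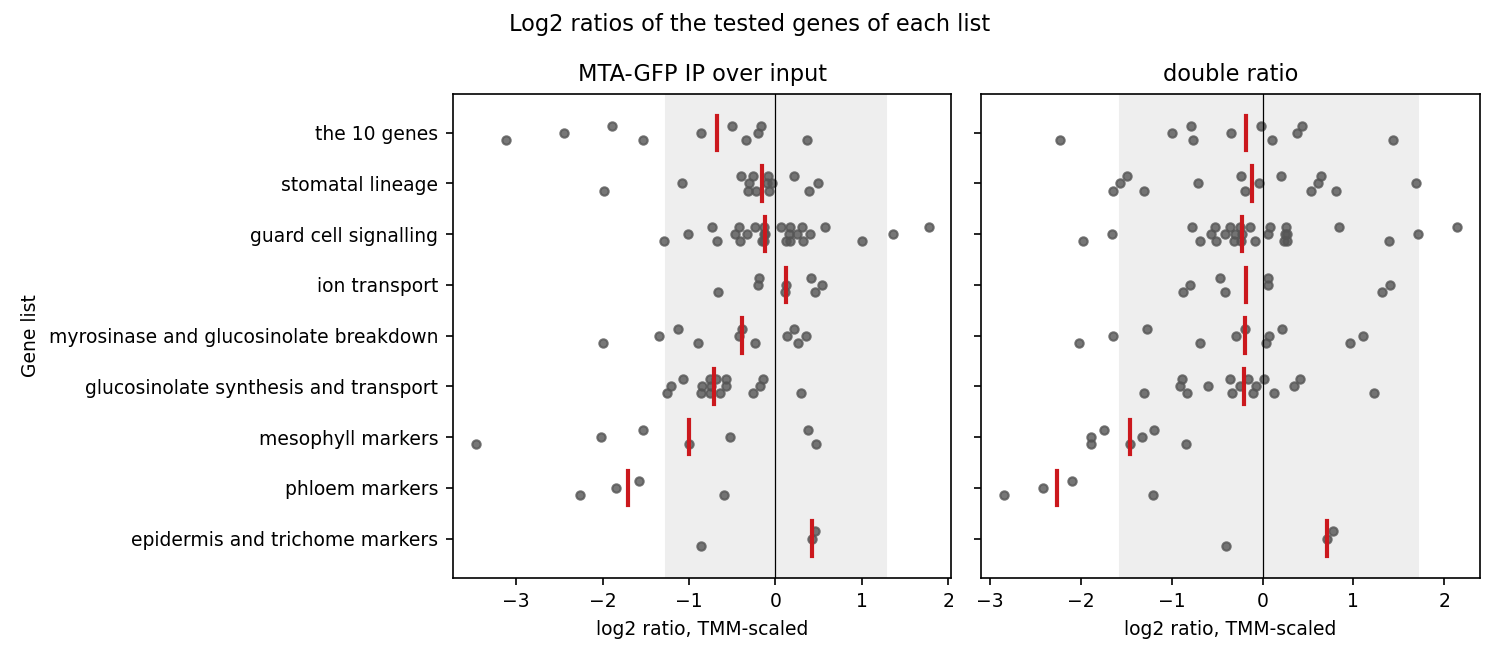
Log2 ratios on TMM-scaled reads of each compared gene (points) in the 10 genes and in the lists, with the list median (red bar); grey bands span the 5th to 95th percentile of all 15669 loci. The median of the 10 genes is -0.68 in the left panel and -0.18 in the right one, the double ratio, and the medians of the 4 phloem markers are -1.71 and -2.26.

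Markers of other leaf cells also differed in these ratios. Of 5 phloem markers 4 were compared, with 3 lower in the MTA-GFP pair and 4 lower in the double ratio, at medians of -1.71 and -2.26. Over all loci 8.71% were lower in the MTA-GFP pair and 9.54% in the double ratio. The summed level of the phloem markers was 208 to 582 mRNA RPM, and RTM1 was at 0 in both inputs. The 7 mesophyll markers had medians of -1.0 and -1.45, with 4 and 6 lower, and stood 1.60 higher at the median with MTA-GFP between the inputs. They did not move as a group: RBCS1A, RBCS1B, RBCS2B and RBCS3B were the 4 lower in the MTA-GFP pair. LHB1B1 and CAB3 were above 0 there, at 0.47 (0.40 to 0.53) and 0.37 (0.31 to 0.43). In the control pair CAB1, LHB1B1 and CAB3 were called higher, at 1.35, 2.22 and 2.26, and RBCS1B lower, at -2.63. Of 6 epidermis and trichome markers 3 were compared and 0 passed the rule in either ratio, at medians of 0.43 and 0.71. Of these 6 markers 0 were at 0 reads in the control input and 2 or 3 in each of the other libraries. Of 4 xylem markers 2 were compared, and XCP2 was lower in the MTA-GFP pair at -2.34 (-3.51 to -1.25). SUC2, the sucrose carrier of companion cells, was lower in both ratios, at -2.26 (-2.54 to -1.99) and -2.84 (-3.22 to -2.47). The part of these cell types in the values of TGG1 and TGG2 was not tested.

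Patterns closest to the myrosinase genes over the 4 libraries were sought among 11617 other loci with at least 100 reads, by Euclidean distance between centred log2 TMM-scaled reads. The nearest to TGG1 were PR5, a pathogenesis-related protein, at a distance of 0.180, PDIL1-2, a protein disulfide isomerase, at 0.189, and the U1 small nuclear RNA gene U1.7 at 0.238. The nearest to TGG2 were the small nucleolar RNA gene SNOR30 at 0.429, AT1G64370 at 0.450 and the U2 gene U2.11 at 0.463. TGG1 ranked 7 from TGG2, and TGG2 ranked 23 from TGG1, at a distance of 0.634. U1 and U2 genes exist as near-identical copies, so these values are uncertain. Likeness here rests on 4 libraries.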

How the data were processed

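Nuclear RNA of 4 libraries was analysed, 1 a group, grouped by sample title. Per the submitters' processing notes the authors used Trimmomatic, Bowtie, HISAT2 and Salmon with build TAIR10; the sources used here give no role, version or strand setting. Per the file headers, the deposited tables list 55524 entries with their lengths in bases, each with an estimated count and a TPM. Counts of a locus's entries were added up, then rounded. All 32548 nuclear or MIR loci matched the RefSeq gene table (TAIR10.1), used only for symbols, types and neighbours. Loci within 10 kb of nuclear ribosomal RNA genes (13 loci, those genes included) were left out of mRNA and nuclear-encoded totals.

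Ratios used 15669 loci with at least 40 reads over the 4 libraries and edgeR 4.0.16 (R 4.3.3) for TMM factors (0.641 and 2.37 for the input and IP of MTA-GFP, 1.13 and 0.581 for those of the control). To each library 0.5 reads were added before the log. Adding them in proportion to the factors instead, with either of 2 variances for the double ratio, was also tried with the results in view, and for a time preferred because its count of called loci equalled that of an earlier analysis. For the ratios the equal addition that the written design names was kept. The distances between patterns used the addition in proportion to the factors. Intervals are at 95%: conditional Clopper-Pearson between 2 libraries, and Poisson variances on the log2 scale for the double ratio. The procedure was tested only on simulated Poisson counts. These hold no variation between preparations, so that test cannot show how far the ratios vary between them. No p-value is given, since each group holds 1 library.

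The 10 genes and the 10 other lists (123 loci) were chosen with earlier results of these data known. Named genes are the 10, their close paralogs, up to 4 members of a list and ratio past the rule (most reads first), MTA, and the 3 loci nearest in pattern to TGG1 and TGG2. NSP1, RTM1 and the loci overlapping SLAC1 were named after their values were seen, and the transcript shares, the quotients within a library and the summed groups were chosen after the values were seen. No sequence was used here.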

Additional observations from a re-analysis of the deposited data

Results flagged for a closer look

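TGG1 and TGG2 were flagged because their ratios of IP over input differed between the MTA-GFP and the control line by more than counting error. The log2 double ratio was -0.999 (-1.14 to -0.85) for TGG1 and -2.23 (-2.46 to -1.99) for TGG2. Among all loci compared, TGG1 stood at percentile 12.8 of this ratio and TGG2 at percentile 2.02. TGG1 was thus inside the range from the 5th to the 95th percentile and was not called. With 1 library a group, the variation between preparations is not in these intervals. Between the inputs TGG2 was also higher with MTA-GFP, at 1.19, and between the IPs it was lower, at -1.04. These directions are relative to the typical nuclear locus. Scaled to all reads the double ratios were 2.31 for TGG1 and 1.09 for TGG2, and scaled to mRNA reads they were -0.59 and -1.81. On the mRNA scale TGG2 between the IPs, at -0.69, was no longer called.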

How the results depend on the processing

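No paired analysis was possible because each group holds 1 library; for the same reason none could be left out. All 10 called values of the 10 genes held with 1 read added, with DESeq2 size factors, with a minimum of 10 reads or of 1 read, and with 0.5 reads added in proportion to the factors under both variances, an alternative added after seeing the data. That alternative left every count of the 10 genes as it was, but moved the double-ratio calls over all loci from 1169 higher and 1495 lower to 1376 and 1399, or 1286 and 1393 with the other variance.

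The scale mattered most. Scaled to all reads, higher and lower counts among the 10 were 6 and 0 in the MTA-GFP pair, 0 and 9 in the control pair, 10 and 0 in the double ratio, 0 and 3 between inputs and 9 and 0 between IPs. On that scale 14587 of all 15669 loci were higher in the MTA-GFP pair, 15132 in the double ratio and 15191 between IPs. Lower on that scale were 8262 loci in the control pair and 6804 between inputs. In the MTA-GFP pair KAT2 turned to 0.28 and OST1 to 0.64, while TGG2 turned to 1.09 in the double ratio and 1.31 between IPs. Scaled to mRNA reads, the control pair had 5 lower, the double ratio 1 higher, and the IPs 2 higher and 0 lower. Of all loci, 2248 were then lower in the control pair, 2515 higher in the double ratio and 1830 higher between the IPs. Scaled to nuclear-encoded reads the double ratio had 1 higher and the IPs 2 higher and 0 lower, where 3143 and 1965 of all loci were higher. On deposited TPM with 0.5 added, which exceeds most of these TPM values, 0 of 10 were called in each ratio, OST1 turned to 0.0020 in the MTA-GFP pair and TGG2 to 0.10 between IPs.

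Over all loci the MTA-GFP pair had 1072 higher and 1364 lower, against 14587 and 77 on all reads, 2899 and 474 on nuclear-encoded reads, 2037 and 688 on mRNA reads and 152 and 21 on TPM. The control pair had 1454 and 1898, against 196 and 8262 on all reads, 1247 and 2147 on nuclear-encoded reads, 1148 and 2248 on mRNA reads and 140 and 36 on TPM. Double-ratio calls were 15132 and 24, 3143 and 544, 2515 and 686, and 58 and 68 on those 4 scales. Between inputs, 1113 and 1050 became 97 and 6804, 798 and 1481, 991 and 1201, and 50 and 12. Between IPs, 778 and 683 became 15191 and 40, 1965 and 338, 1830 and 361, and 71 and 31.

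The 10 genes took 0.0109%, 0.00912%, 0.0122% and 0.00235% of all reads in the input and IP of MTA-GFP and then of the control. Of mRNA reads they took 0.475%, 0.108%, 0.284% and 0.111%, and without TGG1 and TGG2 0.000489%, 0.00147%, 0.000940% and 0.000270% of all reads. With at least 100 reads in each library, 5.74% of loci moved 50 points between transcript models in both IPs, against 9.23%.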
